A study of Homo sapiens with 24 samples.

Results

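The 9 genes described here encode proteins that have been described to bind RNA made of CGG repeats, or to be held in inclusions with it: DGCR8, DROSHA, HNRNPA2B1, PURA, PURB, KHDRBS1, CELF1, MBNL1 and SRSF1. They were chosen by name. Every array feature whose gene symbol in the platform annotation was one of these, or the older names RNASEN for DROSHA and CUGBP1 for CELF1, was taken, which gave 13 of the 62976 features on the array and 9 of 20061 genes with a named feature. HNRNPA2B1 had 3 features, PURB and CELF1 had 2 each, and the other 6 genes had 1 each. All 13 features lay above the limit set for dim genes, so all 9 genes were among the 15046 that were tested.

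The cells were SH-SY5Y, an established neuroblastoma line of sympathetic origin, and all 4 groups received the expression plasmid pCAGIG. In V79_8x its insert was the FMR1 5' untranslated region holding 79 CGG repeats, and the labels describe overexpression with the mark 8x; the sources used here do not give what it stands for. In V79 the insert was the same region with 79 repeats, in V21 the region with 21 repeats, which the design text calls wild type, and in Mock there was none. The array names read V80 for V79 and V80x2 for V79_8x, and the labels were followed. Total RNA was isolated at 24 h, and 100 ng went into Cy3 labelling for 1-colour Agilent arrays. Each group had 6 arrays from experiments lettered B to G, which the design text calls biological replicates, and the letter names an array (V79 B is the V79 array of experiment B).

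CGG repeats in the 5' untranslated region of FMR1 expand in carriers of a premutation, and the tremor and ataxia syndrome that some carriers develop has nuclear inclusions that hold repeat RNA. In the sequestration model the RNA folds into hairpins that hold RNA-binding proteins away from their usual work, which acts on protein and need not alter the messenger RNA of the bound protein. The microarray reads only the messenger RNA. A second proposed route, translation of the repeat into a polyglycine protein, likewise was not measured here.

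The values are the authors' deposited log2 intensities, with the same distribution on every array (median 6.7). Of 13 noradrenergic neuroblast markers with a feature, all 13 lay above the dim limit of 6.43, among them DBH at 13.03 and HAND2 at 14.43, as did all 12 mesenchymal markers. Of 7 glial markers, 3 lay above it, and GFAP, SOX10, AQP4 and MBP lay below it. A probe's intensity depends on its own sequence, so levels are compared between groups for 1 feature and never between features. The cultures were measured in bulk, so fewer cells with a transcript and less of it per cell cannot be told apart, and the sources used here give no share of transfected cells. In 4 arrays (V79 B, V21 B, V21 C and Mock D) the 9 tested histone genes were raised as a set. The median of their shifts from the group's median was 0.14 to 0.80 log2 units there, against -0.14 to 0.09 on the other 20. On these 4 arrays 44.2% to 73.1% of all genes had their group's highest or lowest value, against 15.7% to 50.4% elsewhere, so the ranges overlap on that measure. The 4 are named here for their histone genes, and member or partner differences that they moved are given with and without them.

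No member gene passed the test in any comparison. Of 54 values (9 genes in 6 comparisons), 0 passed an adjusted p of 0.05 by limma with Benjamini-Hochberg adjustment over all 15046 genes. For V79_8x against V79 this count of 0 of 9 stood beside 1.15% of all genes called. For V79_8x against V21 it stood beside 2.86%, and for V79_8x against Mock beside 2.2%. For V79 against V21 and for V79 against Mock the background was 0.00665% each, and for V21 against Mock it was 0% (0 genes by limma, with 486 at an unadjusted p under 0.05). A count of 0 of 9 is near each of these backgrounds. At an unadjusted p under 0.05, 3 of the 54 values were found. Of these, 2 of 9 were for V79_8x against V21 (19.4% of all genes), 1 of 9 for V21 against Mock (3.23%), and 0 of 9 for V79_8x against V79 (5.51%), V79_8x against Mock (8.85%), V79 against V21 (3.81%) and V79 against Mock (2.7%). The groups of every member overlapped in every comparison. The share of all genes whose groups did not overlap was 2.06% for V79_8x against V79, 2.67% against V21 and 2.97% against Mock. It was 0.0598% for V79 against V21, 0.133% for V79 against Mock and 0.0199% for V21 against Mock. For overlap too, 0 of 9 is near each of these shares.

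The median difference over the 9 genes was 0.03 log2 units for V79_8x against V79, -0.06 for V79_8x against V21 and -0.02 for V79_8x against Mock. Over all genes tested it was 0.01 against V79, 0.03 against V21 and 0.01 against Mock. Over the 54 values, which are those of the brightest features, the 95% intervals reached no lower than -0.70 (HNRNPA2B1, V79_8x against V21). They reached no higher than 0.55 (MBNL1, V21 against Mock). The other features of these genes can have wider intervals. The second CELF1 feature had -1.04 to 0.01 for V79_8x against V21 and -0.16 to 0.90 for V21 against Mock. In V79_8x, all 20 tested genes of an interferon response list rose in each of its 3 comparisons. The share of all genes called higher was 1.02% against V79, 2.19% against V21 and 1.71% against Mock. The median difference of the 20 genes was 3.08 log2 units against V79. This list was chosen with earlier results of these data known, so its count is not an independent test. The limit for dim genes used the mean over all arrays, V79_8x included. A rise in V79_8x could thus help a listed gene to be among those tested.

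**Figure D1:**
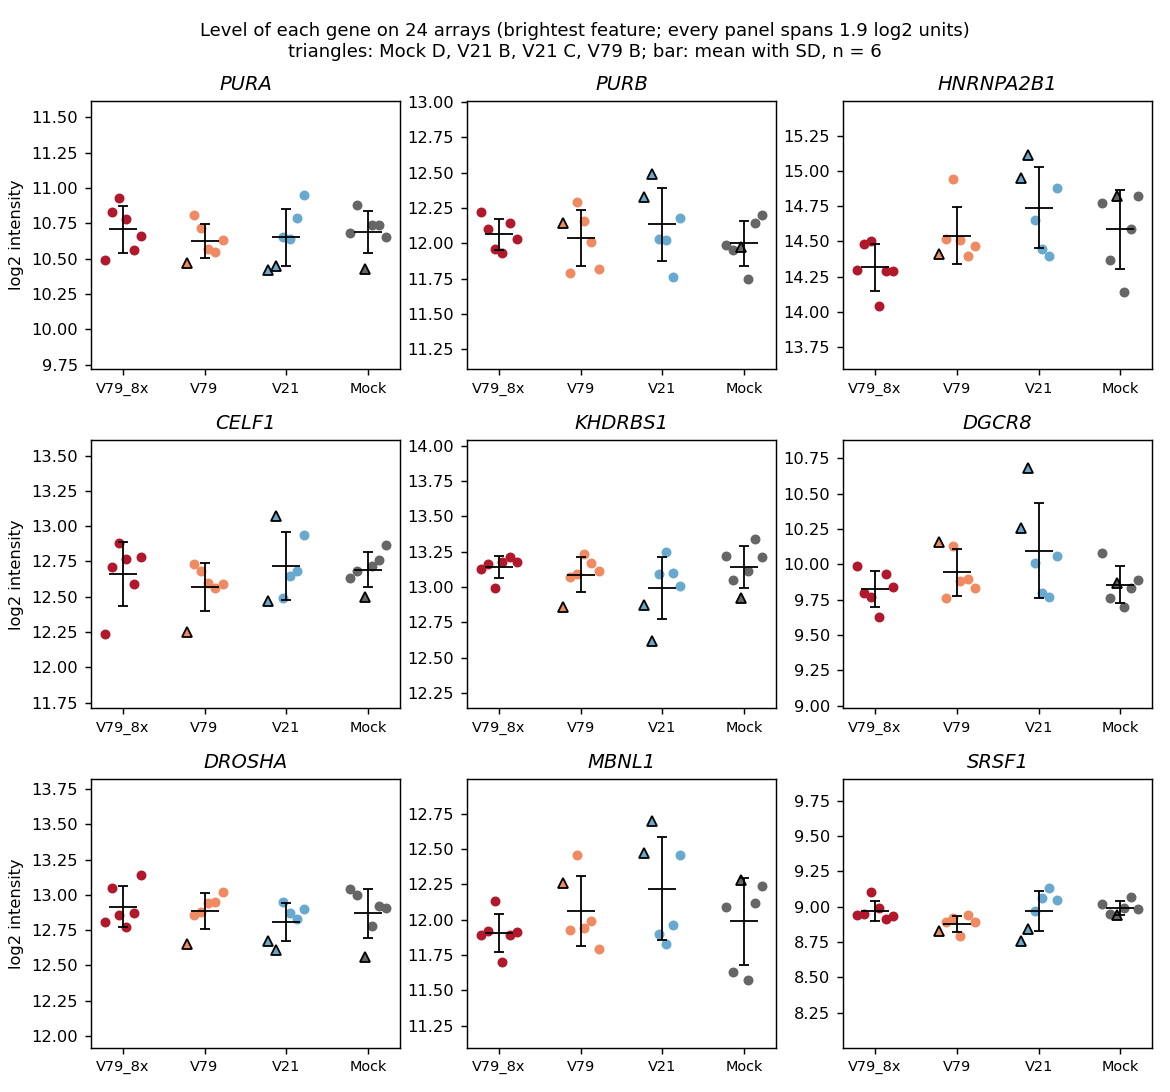
Deposited log2 intensity of the brightest feature of each of the 9 genes (vertical axes, 1 panel a gene) on the 24 arrays, by group from V79_8x to Mock on the horizontal axis; each point is 1 array, triangles mark the 4 arrays that stand apart, and bars give the mean with its SD (n = 6). The groups overlap in every panel, and HNRNPA2B1 has its lowest group mean in V79_8x.

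**Figure D2:**
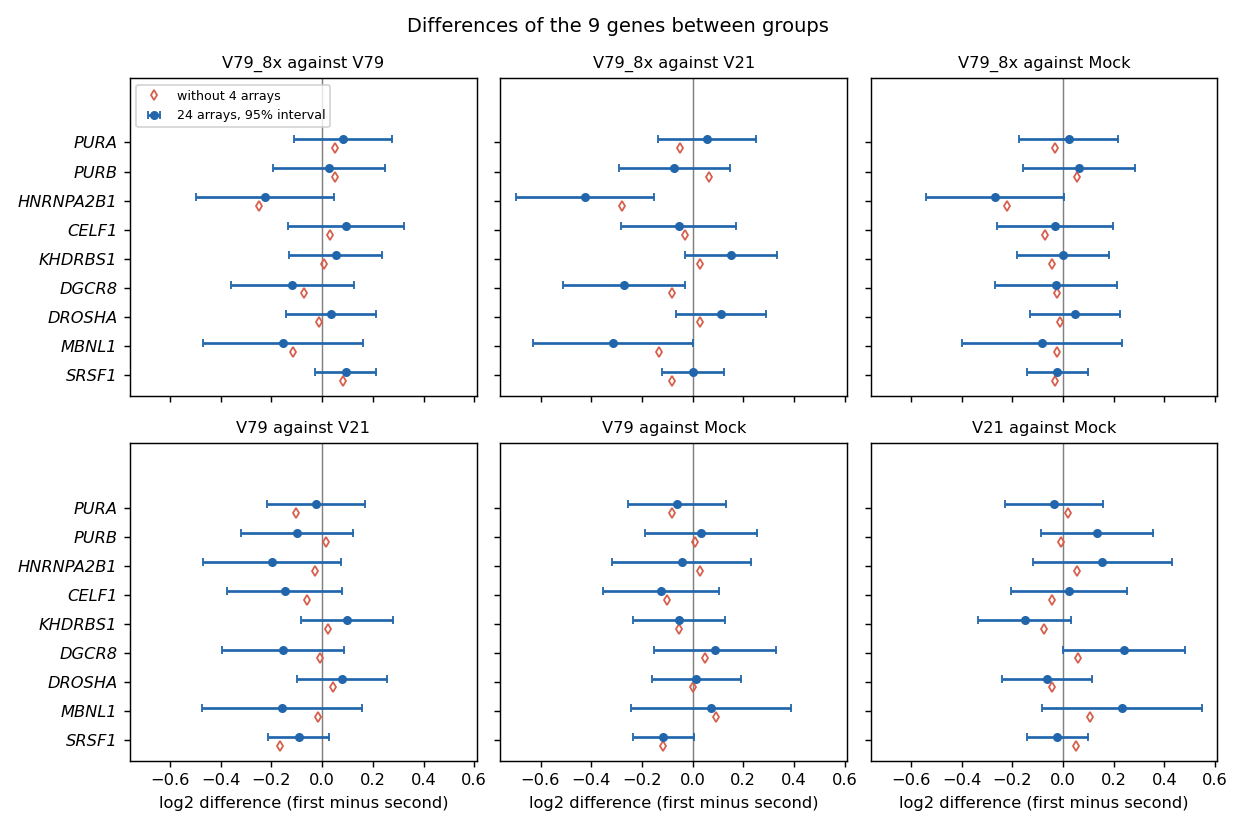
Log2 difference between groups for each gene with its 95% interval (blue, horizontal axis, log2 units), 1 panel for each of the 6 comparisons; open red diamonds give the difference without the 4 arrays that stand apart. The interval that lies farthest from 0 is that of HNRNPA2B1 for V79_8x against V21, at -0.70 to -0.15.

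DGCR8 and DROSHA form the Microprocessor, which cuts primary microRNA transcripts in the nucleus. DGCR8 is the subunit that binds the double-stranded stem of the hairpin. Its level ran from 9.63 to 9.99 in V79_8x (median 9.82), from 9.76 to 10.16 in V79 (median 9.89), from 9.77 to 10.68 in V21 (median 10.04) and from 9.70 to 10.08 in Mock (median 9.85). The groups overlapped, and the highest value of all was that of V21 C, one of the 4 arrays that stand apart. DGCR8 differed by -0.27 ± 0.12 (SE) between V79_8x and V21 (limma adjusted p = 0.22, lower in 5 of 6 experiments). V21 against Mock gave 0.24 ± 0.12 (limma adjusted p = 0.78, higher in 5 of 6). Without the 4 arrays these DGCR8 values were -0.08 and 0.06.

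DROSHA is the nuclease of the complex. Its group means were 12.92 in V79_8x, 12.88 in V79, 12.80 in V21 and 12.87 in Mock, and the SD within a group was 0.13 to 0.18 (n = 6). The 6 differences ran from -0.06 to 0.11, and each was smaller than the spread within the groups. For V79_8x against V79 the interval of the DROSHA difference was -0.14 to 0.21 log2 units.

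HNRNPA2B1 encodes a nuclear ribonucleoprotein that binds CGG repeat RNA directly in vitro and takes part in splicing and RNA transport. The brightest of its features ran from 14.04 to 14.50 in V79_8x (median 14.29), from 14.40 to 14.94 in V79 (median 14.49), from 14.40 to 15.11 in V21 (median 14.77) and from 14.14 to 14.82 in Mock (median 14.68). The V79_8x arrays lay toward the low end, yet each group overlapped with them. The difference was -0.42 ± 0.13 for V79_8x against V21, 0.746 times the V21 level, with a 95% interval of -0.70 to -0.15 and a limma adjusted p of 0.091. The value was lower in V79_8x in 6 of 6 experiments against V21 and against V79 (-0.23 ± 0.13, adjusted p = 0.98), and in 5 of 6 against Mock (-0.27 ± 0.13, adjusted p = 0.58). These 3 comparisons share the V79_8x arrays. After group means were taken off, same-letter arrays correlated above 0.1 in 1 of 6 pairs of V79_8x and V21. For V79_8x and V79 it was 3 of 6. A pairing by letter was thus not established there, which limits the counts by experiment and the fits with a block. With the experiment letter as a block in the fit, HNRNPA2B1 for V79_8x against V21 passed the threshold (-0.42, limma adjusted p = 0.041), and with the letter as a random block it did not (adjusted p = 0.059). Without the 4 arrays, HNRNPA2B1 gave -0.28 against V21, -0.25 against V79 and -0.22 against Mock.

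The features of HNRNPA2B1 did not move together. The second feature had a difference of 0.21 ± 0.17 for V79_8x against V21 (limma adjusted p = 0.46 over all features), opposite in sign to the first. In V21 it ran from 12.90 on V21 C to 14.42 on V21 E, with a median of 14.14, against 14.05 to 14.30 in V79_8x. Without the 4 arrays this second feature gave -0.07, so its positive sign rested on them. Across arrays, after each group mean was taken off, features 1 and 2 correlated at r = -0.55 over 24 arrays and -0.59 over the 20, as a description of points that share arrays and their normalization. The third feature lay close to the dim limit, with group means of 6.64 in V79_8x, 6.84 in V79, 6.75 in V21 and 6.94 in Mock. No feature of any member was called: 0 of 13 in each comparison. The share of all features called was 1.14% for V79_8x against V79, 2.58% against V21 and 2.08% against Mock, 0.00736% for V79 against V21, 0.00736% for V79 against Mock and 0% for V21 against Mock.

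**Figure D3:**
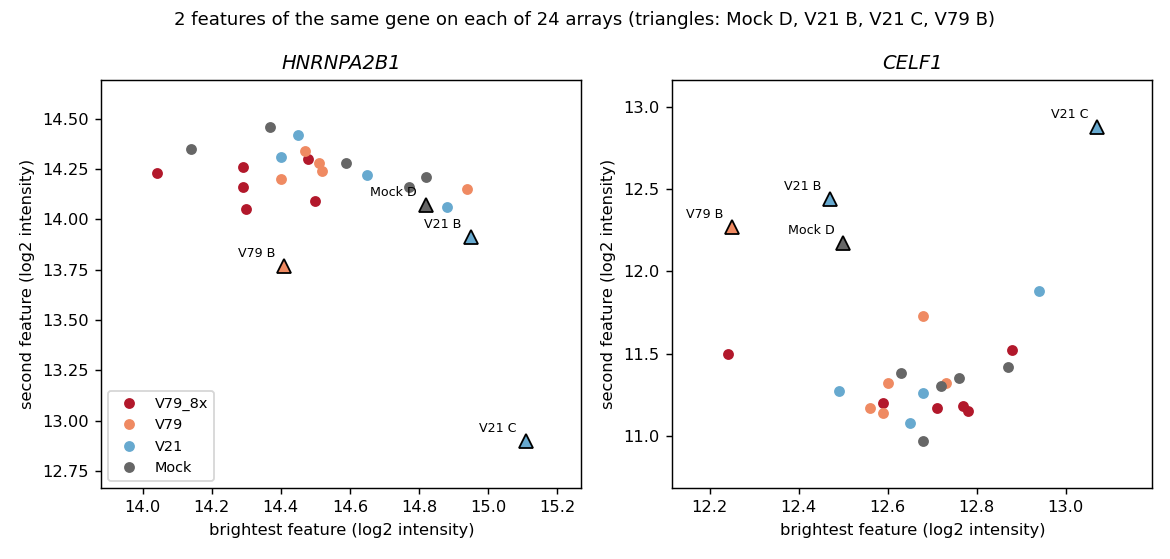
Log2 intensity of the second feature (vertical axes) against that of the brightest (horizontal axes) for HNRNPA2B1 and CELF1, each point 1 of 24 arrays, coloured by group, with triangles for the 4 arrays that stand apart. The HNRNPA2B1 features 1 and 2 run in opposite directions, and CELF1 feature 2 is high on the 4 arrays that stand apart.

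CELF1 (formerly CUGBP1) and MBNL1 are splicing regulators with opposed effects on many exons, best known from the CUG repeat disease myotonic dystrophy. CELF1 was recovered with CGG repeat RNA through HNRNPA2B1 in Drosophila. The first CELF1 feature averaged 12.66 ± 0.23 in V79_8x, 12.57 ± 0.17 in V79, 12.72 ± 0.24 in V21 and 12.69 ± 0.12 in Mock (SD, n = 6 each), and its 6 differences ran from -0.15 to 0.09. The second feature was at 12.27 for V79 B, 12.44 for V21 B, 12.88 for V21 C and 12.17 for Mock D, and no other array exceeded 11.88. All 4 of these are the arrays with raised histone genes. The second feature differed by -0.52 ± 0.26 between V79_8x and V21 (limma adjusted p = 0.27), and by -0.09 without the 4 arrays.

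MBNL1 had the widest spread of the 9, with a residual SD of 0.28 against a median of 0.17 over all genes. It ran from 11.70 to 12.13 in V79_8x (median 11.90), from 11.79 to 12.46 in V79 (median 11.96), from 11.83 to 12.70 in V21 (median 12.21) and from 11.57 to 12.28 in Mock (median 12.11). Each group overlapped with every other. Its value for V79_8x against V21 was -0.31 ± 0.15 (limma adjusted p = 0.26), and it was -0.13 without the 4 arrays.

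PURA and PURB encode the closely related single-stranded nucleic acid binding proteins Pur alpha and Pur beta, and Pur alpha was found to lessen the toxicity of CGG repeats in Drosophila. PURA averaged 10.71 ± 0.17 in V79_8x, 10.62 ± 0.12 in V79, 10.65 ± 0.20 in V21 and 10.69 ± 0.15 in Mock (SD, n = 6 each). It was higher in V79_8x than in V79 in 6 of 6 experiments, by 0.08 ± 0.09 (limma adjusted p = 0.98). The first PURB feature had group medians of 12.07 in V79_8x, 12.08 in V79, 12.11 in V21 and 11.98 in Mock. Its second feature averaged 9.83 in V79_8x, 9.74 in V79, 9.80 in V21 and 9.73 in Mock. The PURB features did not track each other across arrays (r = 0.00 over 24 arrays), and the differences of both lay between -0.10 and 0.14.

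KHDRBS1 encodes Sam68, a splicing regulator of the STAR family that was found in CGG inclusions. It averaged 13.14 ± 0.08 in V79_8x, 13.09 ± 0.13 in V79, 12.99 ± 0.22 in V21 and 13.14 ± 0.15 in Mock (SD, n = 6 each). The V21 mean was the lowest, and the lowest V21 array was V21 C at 12.62. KHDRBS1 for V79_8x against V21 gave 0.15 ± 0.09 (limma adjusted p = 0.33), and 0.03 without the 4 arrays.

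SRSF1 encodes a splicing factor of the SR family. It had the tightest spread of the 9, with a residual SD of 0.087, at percentile 3.9 of all genes tested. Its range was 8.91 to 9.10 in V79_8x (median 8.95), 8.79 to 8.94 in V79 (median 8.89), 8.76 to 9.13 in V21 (median 9.01) and 8.94 to 9.07 in Mock (median 8.98). The V79 arrays were lower than Mock in 6 of 6 experiments, with a difference of -0.12 ± 0.06 (limma adjusted p = 1). Their highest value, 8.94, was equal to the lowest in Mock, that of Mock D, which is among the 4 arrays. Without the 4 arrays the lowest Mock value was 8.95, and the difference was -0.12 (limma unadjusted p = 0.022, adjusted p = 0.97). For V79 against V21 the difference was -0.09 ± 0.06, and without the 4 arrays -0.17 (unadjusted p = 0.0032, adjusted p = 1).

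Of the 4 arrays, V79 B held its group's highest or lowest value for 5 of 9 members (73.1% of all genes), V21 B for 3 (44.2%), V21 C for 7 (58.1%) and Mock D for 7 (69.2%). The other 20 arrays did so for 0 to 6 members, and V79_8x D reached 6 (44.2% of all genes) with a histone shift of 0.03. The members' counts were thus below the share of all genes on V79 B and V21 B, and above it on V21 C, Mock D and V79_8x D. Leaving out the 4 arrays changed the sign of 12 of the 54 differences, and no member was called. The part of what raised the histone genes in the members' values was not tested.

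**Figure D4:**
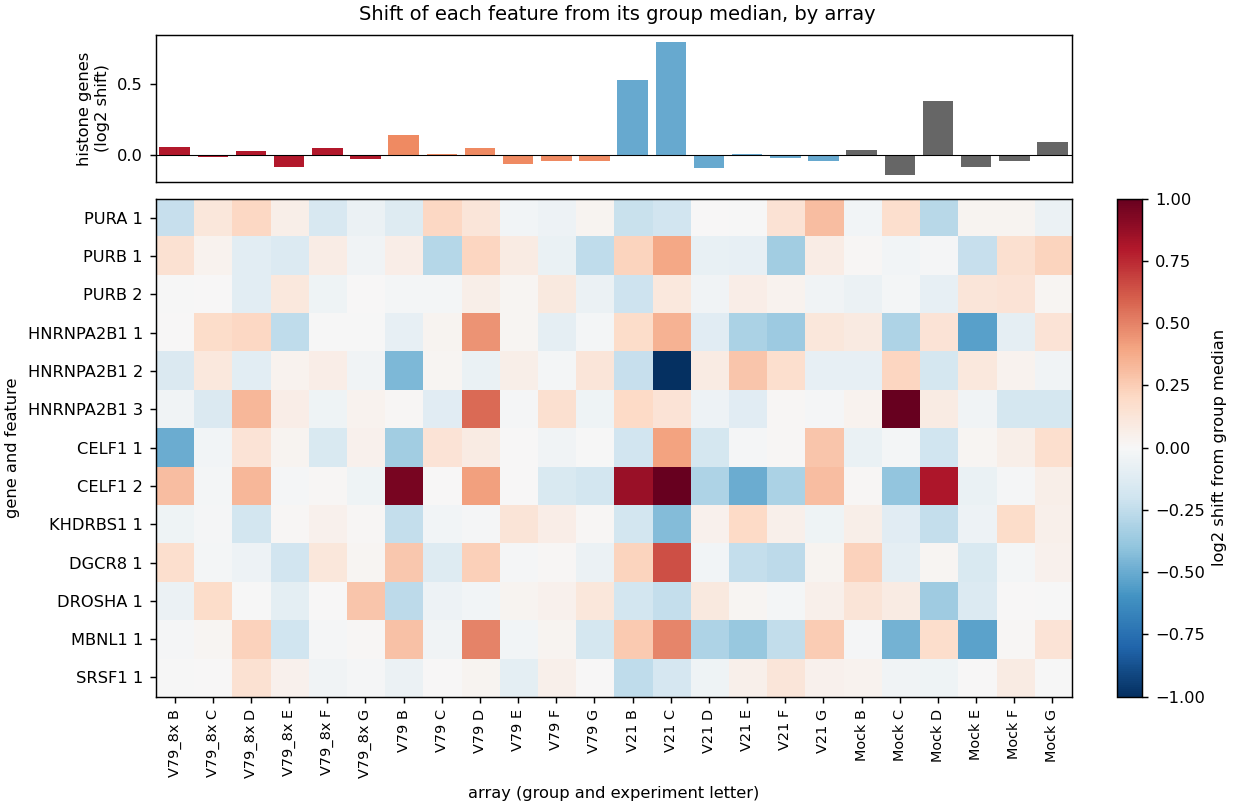
Bars give the median shift of the 9 tested histone genes from their group's median on each of the 24 arrays (log2 units). The map below them gives the shift of each of the 13 member features from its group median on the same arrays (red higher, blue lower, colours ending at 1 log2 unit either way). The 4 tallest bars, 0.14 to 0.80, stand over the 4 arrays on which CELF1 feature 2 is highest, at 12.17 to 12.88.

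Inside the groups, some members varied together and others in opposite directions. After group means were taken off, 18 of the 36 pairs of members had a positive correlation over 24 arrays and 17 a negative one, from r = -0.61 (KHDRBS1 and DGCR8) to 0.88. Over the 20 arrays 23 were positive and 13 negative, and KHDRBS1 with DGCR8 gave 0.02. HNRNPA2B1 and MBNL1 correlated at r = 0.88 over 24 arrays and 0.90 over the 20. PURB and DGCR8 did so at 0.82 and 0.73, and DGCR8 and MBNL1 at 0.76 and 0.66. The Microprocessor partners DGCR8 and DROSHA had r = -0.33 over 24 arrays and 0.26 over the 20. All these points share arrays and one normalization, so they are descriptions.

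The 3 tested genes most like each member, by the same correlation over 24 arrays, were found for all 9. For DGCR8 they were NOC4L, TMEM160 and SLX9, at r = 0.97 each, and for MBNL1 they were PRKAG2, PKN2 and ZGRF1, at 0.96 each. HNRNPA2B1 lay nearest to CRYBG3 (0.95), NKTR (0.92) and PMS1 (0.90), CELF1 to HOXC8 (0.94), SCOC (0.93) and PRPF38A (0.93), and KHDRBS1 to PSMF1 (0.94), TENT5B (0.92) and GLI2 (0.92). PURB was nearest to ATP5F1D (0.92), TEDC1 (0.91) and REX1BD (0.91), and PURA to BCCIP (0.88), BEX1 (0.87) and COX20 (0.87). DROSHA had TCEAL4 (0.92), ZCCHC3 (0.91) and PHAX (0.90), and SRSF1 had EID2 (0.88), LSM6 (0.84) and IFTAP (0.83). The SRSF1 likenesses fell off most over the 20 arrays, where EID2 gave 0.70, LSM6 0.57 and IFTAP 0.62.

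The partners of the members were counted next, in lists of related proteins. The microRNA pathway list (Dicer, exportin-5, the Argonautes and others) had 0 of 16 tested genes called in any of the 6 comparisons. Of all genes tested, 0% (V21 against Mock) to 2.86% (V79_8x against V21) were called. A count of 0 is near these shares for each list in this paragraph. DICER1, which cuts the hairpin after export, had its smallest p for V79_8x against V21, at -0.16 ± 0.06 (limma adjusted p = 0.18), and at -0.19 without the 4 arrays. The MBNL and CELF families had 0 of 7 called, and the gene with the smallest p was MBNL3 (-0.22 ± 0.12 for V79_8x against V21, limma adjusted p = 0.29, and -0.08 without the 4 arrays). Of 4 tested STAR and PUR genes 0 were called. QKI, a STAR splicing regulator, averaged 11.54 in V79_8x against 12.22 in V21, lower in 6 of 6 experiments, at -0.68 ± 0.22 (limma adjusted p = 0.099), and -0.33 without the 4 arrays. Of 10 other genes described with CGG RNA or the polyglycine protein 0 were called, and TMPO had the smallest p (-0.33 ± 0.12 for V79_8x against V21, limma adjusted p = 0.13, and -0.20 without the 4 arrays).

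Of 23 tested hnRNP genes, 1 fell in each V79_8x comparison, beside 0.133% of all genes that fell against V79, 0.678% against V21 and 0.485% against Mock. It was HNRNPA0, an AU-rich element binding relative of HNRNPA2B1. Its level was 10.19 to 10.51 in V79_8x (median 10.36), 10.57 to 10.77 in V79 (median 10.70), 10.59 to 11.01 in V21 (median 10.80) and 10.65 to 10.89 in Mock (median 10.85). The V79_8x arrays lay below all the arrays of each other group. HNRNPA0 fell by 0.32 ± 0.07 against V79 (0.800 times, limma adjusted p = 0.01), by 0.44 ± 0.07 against V21 (0.738 times, adjusted p = 0.00017) and by 0.45 ± 0.07 against Mock (0.731 times, adjusted p = 0.00012), in 6 of 6 experiments each. The 3 comparisons share the V79_8x arrays. HNRNPA0 has 1 feature, and without the 4 arrays it gave -0.32, -0.44 and -0.48. On the same V79_8x arrays the mean of the 20 interferon genes was 11.28 to 11.89, against 8.34 to 8.74 in V79, 8.17 to 8.46 in V21 and 8.35 to 8.75 in Mock, and the glial-listed gene CNP rose by 0.42 to 0.52, while GFAP, SOX10, AQP4 and MBP lay below the dim limit. Of 7 glial markers with a feature, 3 were tested, and CNP was the only one called. The log2 of the summed intensity of the 7 was 15.46 to 15.82 in V79_8x, 15.09 to 15.28 in V79, 14.92 to 15.26 in V21 and 14.87 to 15.25 in Mock. That sum is almost wholly CNP, whose mean was 15.20, with S100B next at 8.41, so it repeats the CNP value. Of 12 mesenchymal markers, COL1A2 fell by 0.49 against V21 (adjusted p = 0.0033) and by 0.40 against Mock (0.025). The summed level of the 12 mesenchymal markers was 17.71 to 17.90 in V79_8x, against 17.56 to 18.07 over the arrays of V79, V21 and Mock. This sum is mostly VIM, whose mean was 17.73, with TWIST1 next at 13.70, so it says little of the other mesenchymal markers. Of 13 noradrenergic markers, DDC rose by 0.36 against V21 (adjusted p = 0.038) and ISL1 fell by 0.24 against Mock (0.023). Without the 4 arrays DDC was not called, and ISL1 was (-0.214, limma adjusted p = 0.026). The mesenchymal markers COL1A2 (-0.306 to -0.468) and PRRX1 (-0.245 to -0.323) were then called lower in all 3 V79_8x comparisons. The part of any of these in the fall of HNRNPA0 was not tested.

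Of 16 tested SR protein genes and kinases, 1 fell for V79_8x against V21, beside 0.678% of all genes that fell, and 0 were called in the other 5 comparisons. It was SRSF3, the smallest SR protein, whose first feature was 13.95 to 14.35 in V79_8x (median 14.20) and 14.36 to 15.13 in V21 (median 14.59). The highest V79_8x array lay just under the lowest V21 array. SRSF3 fell by 0.47 ± 0.11 (limma adjusted p = 0.015, lower in 6 of 6 experiments). Its second feature averaged 14.30 in V79_8x and 14.28 in V21, a difference of 0.02. Without the 4 arrays the adjusted p of the first feature was 0.089 against V21 and 0.044 against Mock, where it had been 0.11 with all arrays. SRSF12, named here after its values were seen, was called without the 4 arrays against V21 (-0.23 ± 0.05, limma adjusted p = 0.0038) and against Mock (-0.24 ± 0.04, adjusted p = 0.0014). With all arrays its adjusted p was 0.14 against V21 and 0.34 against Mock. Without the 4 arrays the list thus had 1 gene called against V21 and 2 against Mock.

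**Figure D5:**
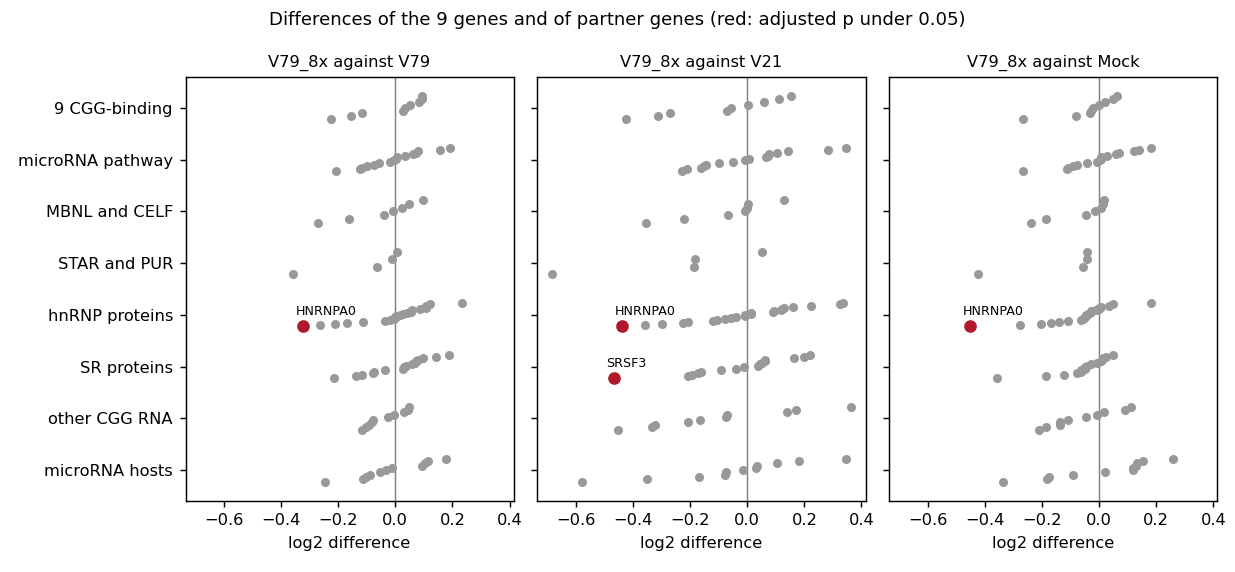
Log2 difference (horizontal axis) of the 9 genes and of each partner list (rows) for V79_8x against V79, V21 and Mock; each point is 1 gene and red points have an adjusted p under 0.05. HNRNPA0 is the red point in all 3 panels and SRSF3 in the V21 panel, and the 9 genes have none.

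The Microprocessor acts on primary microRNA transcripts, so the long host genes that carry them were examined next to DGCR8 and DROSHA. The list was taken from the gene names after the files were seen. The features read the level of host RNA, and whether that level follows Microprocessor activity was not tested. Of 18 host genes with a feature, 11 were tested, and 0 were called in any of the 6 comparisons. That is near the 0% to 2.86% of all genes called. Among the tested hosts, MIR4453HG (group means 6.367 to 6.542) and MIR7-3HG (6.525 to 6.618) lay close to the dim limit. Mature microRNAs were not measured on these arrays. Some of the mature sequences that RefSeq (GRCh38.p14) places within the hosts MIRLET7BHG, MIR9-2HG, MIR17HG and MIR22HG are shown because these hosts carry the values below. Each of these hosts holds other mature sequences that are not shown. Capitals mark the seed, bases 2 to 8, which let-7a and let-7b share.
hsa-let-7a-5p: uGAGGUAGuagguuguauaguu
hsa-let-7b-5p: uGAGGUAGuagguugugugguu
hsa-miR-9-5p: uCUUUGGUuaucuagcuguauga
hsa-miR-17-5p: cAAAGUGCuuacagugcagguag
hsa-miR-22-3p: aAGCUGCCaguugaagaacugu

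MIRLET7BHG, a host of the let-7 sequences above, averaged 12.03 ± 0.16 in V79_8x, 12.09 ± 0.12 in V79, 12.11 ± 0.19 in V21 and 11.91 ± 0.13 in Mock (SD, n = 6 each). MIR9-2HG, a host of the neural miR-9, averaged 9.28 ± 0.10 in V79_8x, 9.11 ± 0.13 in V79, 8.94 ± 0.35 in V21 and 9.17 ± 0.20 in Mock. It had the smallest p of the hosts, with 0.35 ± 0.12 for V79_8x against V21 (limma adjusted p = 0.14), and 0.16 without the 4 arrays. MIR9-1HG, also a tested host of miR-9, gave 0.18 ± 0.11 for V79_8x against V21 (limma adjusted p = 0.35). For V79_8x against V79, MIR9-1HG gave -0.09 ± 0.11 and MIR9-2HG 0.18 ± 0.12. MIR17HG, host of the miR-17 to miR-92 cluster, averaged 8.26 ± 0.20 in V79_8x, 8.37 ± 0.18 in V79, 8.61 ± 0.45 in V21 and 8.35 ± 0.27 in Mock. MIR22HG averaged 9.54 ± 0.22 in V79_8x, 9.79 ± 0.58 in V79, 10.12 ± 0.62 in V21 and 9.88 ± 0.46 in Mock, and its difference for V79_8x against V21 was -0.58 ± 0.27 (limma adjusted p = 0.24), and -0.21 without the 4 arrays.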

How the data were processed

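The authors deposited a table of log2 intensities for 24 arrays (62976 features each). The sources used here do not give the background correction and normalization; once sorted, the arrays' values lay within 0.01 of each other, and no pair of arrays was identical. Features were named through the platform annotation, updated by accession (33705 features) or former symbol (644), with 2702 keeping the platform's symbol and 25925 unnamed. The brightest feature by the mean over 24 arrays stood for a gene; the dimmest 25% of genes (mean below 6.43) were left out, leaving 15046 genes and 27189 named features. All 4 groups entered 1 limma fit (limma 3.58.1, R 4.3.3, statmod 1.5.0; lmFit and eBayes), with no covariates, two-sided p and Benjamini-Hochberg adjustment over all genes or features, threshold 0.05. All 6 pairs of groups were compared; the ± after a difference is its SE. The number of arrays limits the precision. P-values measure the spread between the samples, which the design text calls biological replicates. The procedure was tested on simulated data.

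The members and lists were chosen with earlier results of these data known. Named partners were up to 3 genes a list past the threshold, or the gene with the smallest p; named look-alikes were the 3 highest correlations with each member. MIRLET7BHG, MIR17HG, MIR22HG, the host list and the interferon and glial values beside HNRNPA0 were taken after values were seen. The titles' experiment letters were checked as a pairing by correlating the deviations of same-letter arrays from their group means: 16 of 36 pairs were above 0.1 (range -0.66 to 0.77, median 0.07). All 6 V79_8x and Mock pairs were (0.18 to 0.57), and of 6 pairs in each other comparison 1 to 3 were. These values do not settle whether the letters pair the arrays, on which the counts by experiment rest. For V79_8x against Mock the block changed no member's call. Alternatives were a block for the letter (fixed or random), 2-group fits, other filters, the mean of all features, array weights, leaving out the 4 arrays and leaving out each array.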

Additional observations from a re-analysis of the deposited data

Results flagged for a closer look

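Of 52 groups of 6 arrays (13 features in 4 groups), 7 held an array whose gap to the nearest other array was a larger share of the group's range than Dixon's 95% critical value allows, and chance flags about 1 in 20 groups. HNRNPA2B1 feature 1 was 14.94 on V79 D (next 14.52). HNRNPA2B1 feature 2 was 13.77 on V79 B (next 14.15) and 12.90 on V21 C (next 13.91). HNRNPA2B1 feature 3 was 7.94 on Mock C (next 6.88). CELF1 feature 1 was 12.25 on V79 B (next 12.56), and CELF1 feature 2 was 12.17 on Mock D (next 11.42). KHDRBS1 was 12.99 on V79_8x D (next 13.13). V79 B, V21 C and Mock D are among the 4 arrays that stand apart, with 4 of the 7 flags, and the cause was not tested.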

How the results depend on the processing

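Over 34 alternatives, 1833 of 1836 member values stayed short of the threshold. The other 3 are HNRNPA2B1 for V79_8x against V21. With a replicate block for the experiment letter it gave -0.42 (limma adjusted p = 0.041), so 1 member was called, and with the letter as a random block 0 (adjusted p = 0.059); leaving out 1 array at a time gave 0 to 1, with the call made without V21 E (-0.48, adjusted p = 0.042) and without V21 F (-0.49, adjusted p = 0.04). The range was -0.49 to -0.11 and adjusted p 0.04 to 0.44, highest with the mean of all features. The block changed no other member's call, V79_8x against Mock included. HNRNPA0 kept its 3 calls in all 34 alternatives (adjusted p up to 0.039, 0.011 and 0.00073 against V79, V21 and Mock). SRSF3 lost its call in 5 of 34, among them the 2-group fit (adjusted p = 0.098), and the cause was not tested. Counts of all genes called moved more: V79_8x against V79 gave 173, 461 with array weights and 274 without the 4 arrays; V79_8x against Mock gave 331, and 1047 and 597 under the same; V79_8x against V21 gave 431, 243 with only the compared groups in the fit and 728 without V21 E. V79 against V21 gave 1, and 0 to 2; V79 against Mock gave 1, and 0 to 3.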
